A study of Mus musculus with 6 samples.

Results

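Saa1, Saa2, Saa3, Lcn2, Ptx3, Hp and Cp encode secreted proteins of the acute-phase response, and their messages were followed here in mouse embryonic fibroblasts (MEFs) treated with the inflammatory cytokine TNFα. The 7 genes, of 21837 in the deposited table, were selected by name as acute-phase genes, with their measured values in this time course already known, so their changes are given as a description and not as a test. The cells were primary wildtype MEFs of the strain C57BL/6x 129, taken at 13.5 days from embryos with RelA−/− littermates and passaged 4 times. The study states that more than 1 independently derived line was used per experiment. The line and the number of embryos behind a library were not given. RNA-seq was made from untreated cells and from cells after 1.5, 6 and 24 hr with TNFα at 20 ng/ml, with 1 library per time, and H3K4me3, a histone mark of active promoters, was mapped by ChIP-seq in MEFs with 1 input library. With 1 library per time there is no replicate error and no test between times. Each library has a pair of columns, R1 and R2, which the labels do not explain, and the difference between them is not a replicate error.

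The acute-phase response is the change in plasma proteins that follows infection or injury. It is driven largely by interleukin 1, interleukin 6 and TNFα acting on the liver, through NF-κB, C/EBP proteins and STAT3, and some of the same genes are switched on in fibroblasts, macrophages and fat. Serum amyloid A proteins (Saa1, Saa2, Saa3) are small apolipoproteins of high-density lipoprotein, haptoglobin (Hp) binds free haemoglobin, ceruloplasmin (Cp) is a copper-carrying oxidase of iron, lipocalin 2 (Lcn2) binds bacterial siderophores, and pentraxin 3 (Ptx3) is a pattern recognition protein made outside the liver.

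By 24 hr the messages of Saa3, Hp and Cp stood 220-fold, 35.6-fold and 20.1-fold above the untreated library. That of Saa1 stood 71.9-fold above an untreated value that rested on about 1 read in R1 and 0 in R2. All 4 had their highest value in the 24 hr library. Ptx3 took another course, with its highest deposited value at 1.5 hr, 4.12-fold above untreated, although scaling by the median of ratios put 6 hr highest. Lcn2 and Saa2 stayed at 0 to 3 reads in every library, so that no change in them was detectable at this depth.

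**Figure D1:**
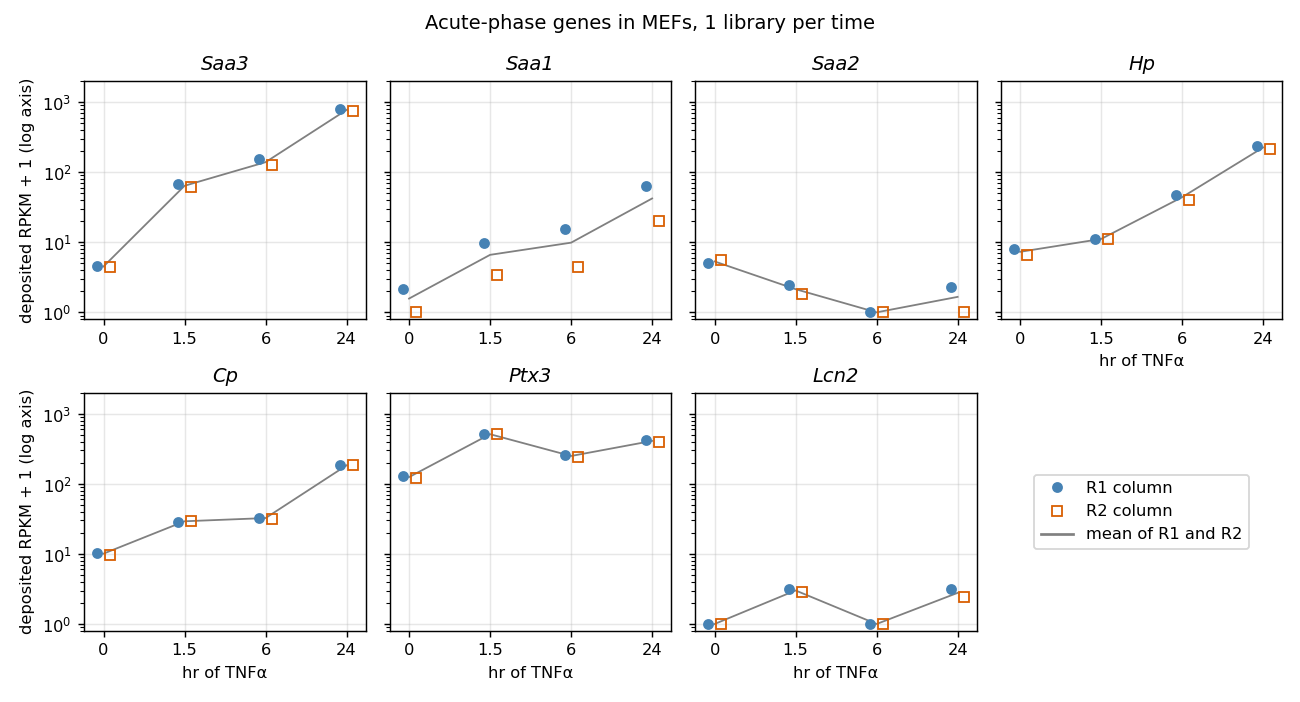
Deposited RPKM plus 1 on a log axis for the 7 genes in the untreated library (0) and after 1.5, 6 and 24 hr of TNFα, with the R1 column as filled circles, the R2 column as open squares and the line through their mean; the times are drawn at equal steps, not to scale. Saa3 went from 3.52 to 774, Hp from 6.31 to 225 and Cp from 9.10 to 183, while Ptx3 was highest at 1.5 hr (510) as deposited, though not after scaling by the median of ratios, and Saa2 and Lcn2 stayed under 5.

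The values are RPKM, read numbers corrected for transcript length and for the size of the library, on a scale of the authors' own, in which 1 read in a transcript of 1 kb was worth between 0.801 and 1.11 units depending on the column. That step was recovered from the low genes and gives the approximate number of reads behind each value. Exact 95% counting intervals of the ratios, given for the R1 column unless stated, were made from these reads and cover counting error only. The libraries also differed as a whole. The median coding gene had ratios of 1.36, 0.599 and 1.07 to untreated after 1.5, 6 and 24 hr, or 0.44, -0.74 and 0.10 on the log2 scale, and the ratios below are not corrected for it unless stated.

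The promoters of the 3 Saa genes are shown because Saa1 and Saa2 are near copies of each other while Saa3 differs from both. The Saa3 gene (NM_011315) lies on mm9 chromosome 7, from 53967368 to 53971046 on the minus strand, Saa1 (NM_009117) from 53995871 to 53998350 on the minus strand, and Saa2 (NM_011314) from 54007203 to 54009684 on the plus strand. Each sequence below runs from 250 bases before to 50 bases after the start of the RefSeq gene, 5′ to 3′ in the direction of transcription, on the build GRCm38.p6, which is later than the mm9 build of the deposited files. Capitals mark matches to an NF-κB motif (GGGNNNNNCC) or to a C/EBP motif (TTGCNNAA), read on both strands.
Saa1 promoter, chr7:46742931-46743230, minus strand: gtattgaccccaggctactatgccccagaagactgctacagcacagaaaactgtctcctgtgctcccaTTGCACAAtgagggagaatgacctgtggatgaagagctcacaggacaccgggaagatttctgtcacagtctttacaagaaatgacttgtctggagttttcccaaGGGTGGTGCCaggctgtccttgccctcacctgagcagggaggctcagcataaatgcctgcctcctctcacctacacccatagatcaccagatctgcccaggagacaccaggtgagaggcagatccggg
Saa2 promoter, chr7:46751583-46751882, plus strand: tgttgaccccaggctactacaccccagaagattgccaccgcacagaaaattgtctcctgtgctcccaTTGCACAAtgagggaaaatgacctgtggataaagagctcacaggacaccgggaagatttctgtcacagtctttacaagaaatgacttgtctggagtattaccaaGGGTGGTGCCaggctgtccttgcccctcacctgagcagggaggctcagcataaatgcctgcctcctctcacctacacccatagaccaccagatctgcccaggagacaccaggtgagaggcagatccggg
Saa3 promoter, chr7:46715627-46715926, minus strand: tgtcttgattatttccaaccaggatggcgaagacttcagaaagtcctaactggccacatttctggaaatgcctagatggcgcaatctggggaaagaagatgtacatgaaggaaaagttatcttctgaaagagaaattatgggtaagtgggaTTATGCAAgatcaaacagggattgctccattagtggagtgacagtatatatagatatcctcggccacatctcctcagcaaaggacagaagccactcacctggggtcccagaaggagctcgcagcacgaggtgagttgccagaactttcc
In Saa1 the NF-κB match begins 78 bases before the start and the C/EBP match 182 bases before it, and in Saa2 the distances were 79 and 183. The window of Saa3 held a C/EBP match 99 bases before the start and no match to these NF-κB letters. The NF-κB letters occurred in 50.8% of 32851 mouse promoter windows of the same length and the C/EBP letters in 10.8%, so a match is a description of the window and not a site.

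Saa1 and Saa2 shared 95.3% of aligned bases in the promoter window and 95.1% in the coding sequence. Saa3 shared 54.1% with Saa1 and 53.3% with Saa2 in the promoter window, and 77.0% and 75.8% in the coding sequence. These likenesses bear on how well reads could be assigned. Of the 570 stretches of 36 bases in the Saa1 transcript, 99 (17.4%) also occur in Saa2 and 23 (4.04%) in Saa3, while of the 496 in Saa3 only 23 (4.64%) occur in Saa1. With stretches of 50 bases the shares of Saa1 were 9.17% in Saa2 and 1.62% in Saa3, and that of Saa3 in Saa1 was 1.87%. The values of Saa1 and Saa2 are therefore uncertain between each other, and those of Saa3 much less so. Saa1 is also open to reads of Saa3, which had about 518 and 501 reads in R1 and R2 at 24 hr. Saa1 had about 47 and 15 there. The part of Saa3 reads in the value of Saa1 was not tested. The transcripts of the other 4 members shared no stretch of 36 bases with the transcript of another coding gene.

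Saa3 is the serum amyloid A gene that is expressed mainly outside the liver in the mouse, including in fat and macrophages. Its value was 3.54 in the R1 column and 3.50 in the R2 column of the untreated library, 66.5 and 59.5 at 1.5 hr, 152 and 125 at 6 hr, and 793 and 755 at 24 hr. Every treated value lay above both untreated values, and each later library lay above the one before it. Relative to untreated cells the mean of the columns was 17.9-fold, 39.3-fold and 220-fold higher in the order of time (log2 4.16, 5.30 and 7.78). The untreated value stood for about 2 reads per column and the 24 hr value for about 518 and 501, so the size of the ratio is limited by the untreated library. The counting interval of the 24 hr ratio ran from 60.7-fold to 1823-fold in R1 and from 58.5-fold to 1758-fold in R2. At 1.5 hr the interval ran from 4.79-fold to 158-fold in R1, and at 6 hr from 11.2-fold to 353-fold.

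In rank among the coding genes, Saa3 stood at the 35.3 percentile untreated and at the 59.1, 82.9 and 94.3 percentiles in the order of time. Between 1.5 and 24 hr, where the reads are not scarce, the deposited value increased 12.3-fold. With each library scaled by the median of ratios, the log2 ratios to untreated were 3.72, 6.04 and 7.68. Among the 11583 coding genes with a mean over the 4 libraries of at least 10 deposited units and a ratio at 24 hr, Saa3 had the highest, and at 6 hr it was number 3 of 11580.

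Saa1, one of the main acute-phase apolipoproteins of the liver, was lower throughout and less certain. Its values were 1.15 and 0 in the R1 and R2 columns untreated, 8.86 and 2.38 at 1.5 hr, 14.4 and 3.40 at 6 hr, and 63.1 and 19.3 at 24 hr. The order of the libraries was the same in both columns, with 24 hr highest. The columns themselves differed, since R1 exceeded R2 by a factor of 3.72, 4.22 and 3.27 in the 3 treated libraries. For Saa3 that quotient lay between 1.05 and 1.22 in the same libraries. In reads, the 24 hr value stood for about 47 in R1 and 15 in R2, and the untreated value for about 1 and 0. The R1 ratio at 24 hr was 5.78 on the log2 scale, with a counting interval from 2.77 to 10.65, and at 1.5 hr the interval (-0.53 to 8.03) included no change.

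Both values are per length of transcript, and Saa1 amounted to 8.92% of Saa3 at 1.5 hr, 6.43% at 6 hr and 5.32% at 24 hr. Beside these percentages, 4.64% of the stretches of 36 bases in Saa3 also occur in Saa1, but only 1.87% of those of 50 bases. How much of the Saa1 value came from reads of Saa3 was not tested, so its own level relative to Saa3 is not settled. Saa2, the near copy of Saa1, showed nothing of the course of Saa1. Its values were 4.15 and 4.51 untreated, 1.48 and 0.803 at 1.5 hr, 0 in both columns at 6 hr, and 1.33 and 0 at 24 hr. These values stood for at most 3 reads each, and the counting interval of its ratio at 1.5 hr, from -7.37 to 1.98 on the log2 scale, held both a fall and a rise. Saa4, which lies between Saa3 and Saa1, was listed at 0 in all 4 libraries.

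Haptoglobin was close to its untreated value at 1.5 hr and far above it at 24 hr. The gene (NM_017370) lies on mm9 chromosome 8, from 112099030 to 112103072 on the minus strand. Its values were 7.06 and 5.56 in R1 and R2 untreated, 10.2 and 10.1 at 1.5 hr, 46.8 and 39.3 at 6 hr, and 234 and 215 at 24 hr. The 1.5 hr library stood little above the untreated one, with a ratio of 1.61 and a counting interval (log2 -0.74 to 1.83) that included no change. At 6 hr the ratio was 6.82-fold, in a library in which the median coding gene was lower than untreated. At 24 hr it was 35.6-fold (log2 5.15), with an interval from 17.7-fold to 69.2-fold resting on about 10 and 387 reads. Among the coding genes Hp moved from rank 4994 of 11585 at 1.5 hr to rank 34 of 11580 at 6 hr and rank 7 of 11583 at 24 hr.

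Ceruloplasmin was higher from 1.5 hr on and highest at 24 hr. The gene (NM_007752) spans mm9 chromosome 3 from 19857054 to 19909145 on the plus strand. Its values were 9.40 and 8.80 in R1 and R2 untreated, 27.9 and 28.5 at 1.5 hr, 32.0 and 30.9 at 6 hr, and 183 and 183 at 24 hr. The ratios were 3.10-fold, 3.46-fold and 20.1-fold. The 1.5 and 6 hr values were close as deposited, but scaled by the median of ratios the log2 ratios were 1.19, 2.53 and 4.22. The 24 hr ratio rested on about 40 reads in the untreated R1 column and 906 at 24 hr. Among Saa3, Saa1, Hp and Cp it was the best counted, with an interval from 14.0-fold to 27.1-fold. A second transcript of the gene (NM_001042611), which overlaps the first and shares its reads, took the values 4.18, 19.0, 14.7 and 79.3 in the order of time. Its ratio at 24 hr was 4.24 on the log2 scale, beside 4.33 for the first.

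RefSeq gave 2 promoter windows for Cp, and the downstream one is shown as that of a late member outside the Saa locus. Capitals again mark matches to the NF-κB motif, 146 bases before the start, and to the C/EBP motif, 70 bases before it, both on the opposite strand.
Cp promoter, chr3:19956999-19957298, plus strand: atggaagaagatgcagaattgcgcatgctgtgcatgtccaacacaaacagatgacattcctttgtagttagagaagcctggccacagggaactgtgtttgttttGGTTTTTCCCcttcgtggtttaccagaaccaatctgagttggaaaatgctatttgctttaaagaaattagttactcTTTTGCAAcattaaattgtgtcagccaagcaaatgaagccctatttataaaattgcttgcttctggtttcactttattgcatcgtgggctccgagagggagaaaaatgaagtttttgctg
The upstream window of Cp held neither of these letters and held a match to an AP-1 motif (TGANTCA, found in 7.81% of all windows) 177 bases before its start. A STAT motif (TTCNNNGAA, found in 8.30% of all windows) had no match in any member's window. Promoter windows were found for 6 of the 7 members, all but Hp.

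Ptx3 was the member with the highest untreated level. The gene (NM_008987) lies on mm9 chromosome 3, from 66023809 to 66029728 on the plus strand. Its values were 128 and 120 in R1 and R2 untreated, 514 and 507 at 1.5 hr, 255 and 243 at 6 hr, and 421 and 396 at 24 hr. All treated values lay above the untreated ones, and the 1.5 hr library was the highest. The ratios were 4.12-fold at 1.5 hr (interval 3.51 to 4.62), 2.01-fold at 6 hr (1.71 to 2.34) and 3.30-fold at 24 hr (2.87 to 3.79). The 6 hr library was lower as a whole, and after scaling by the median of ratios the log2 ratios of Ptx3 were 1.60, 1.75 and 1.62 in the order of time. The 24 hr value was 0.801 of the 1.5 hr value as deposited, and after that scaling the log2 ratio of 24 to 1.5 hr turned from -0.32 to 0.02.

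The Ptx3 promoter is printed because Ptx3 was the one member with H3K4me3 at its start. Capitals mark the C/EBP match 57 bases before the start and a pair of overlapping NF-κB matches that begin 1 base before the start and at it.
Ptx3 promoter, chr3:66219637-66219936, plus strand: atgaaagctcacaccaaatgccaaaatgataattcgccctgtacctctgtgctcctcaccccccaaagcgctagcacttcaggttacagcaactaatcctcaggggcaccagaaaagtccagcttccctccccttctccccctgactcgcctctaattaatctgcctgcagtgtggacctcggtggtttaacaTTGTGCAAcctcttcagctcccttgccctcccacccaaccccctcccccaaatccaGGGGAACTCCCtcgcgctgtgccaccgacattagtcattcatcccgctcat
Lcn2, whose protein withholds iron from bacteria, was barely detected. The gene (NM_008491) lies on mm9 chromosome 2, from 32240153 to 32243317 on the minus strand. It was listed at 0 in both columns of the untreated and the 6 hr libraries, at 2.12 and 1.90 at 1.5 hr, and at 2.15 and 1.41 at 24 hr. Each of the latter values stood for about 2 reads, which is within the 3 counts that a value of 0 allows, and no ratio is given. Its promoter window held matches to the NF-κB letters 102 bases and to the C/EBP letters 216 bases before the start.

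Counted by the rule of a ratio of at least 2 with a mean over the 4 libraries of at least 100 deposited units, only Saa3 and Ptx3 were tested. Both were higher at 1.5 hr, where 29.8% of 6022 coding genes were called higher and 7.94% lower. Both were higher at 6 hr, against 1.84% higher and 31.5% lower, and both at 24 hr, against 16.8% higher and 12.8% lower. With a mean of at least 10 units Saa1, Hp and Cp were tested as well, and 4 of 5 members were higher at 1.5 hr, all but Hp, where 31.4% of 11587 genes were. All 5 were higher at 6 hr, where 1.94% of genes were, and at 24 hr, where 17.2% were. The members were chosen with these contrasts known and Saa3 (at a mean of 100) and Saa1 (at a mean of 10) passed the filters only through their 24 hr values, so the counts describe them and nothing is read from their excess.

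**Figure D2:**
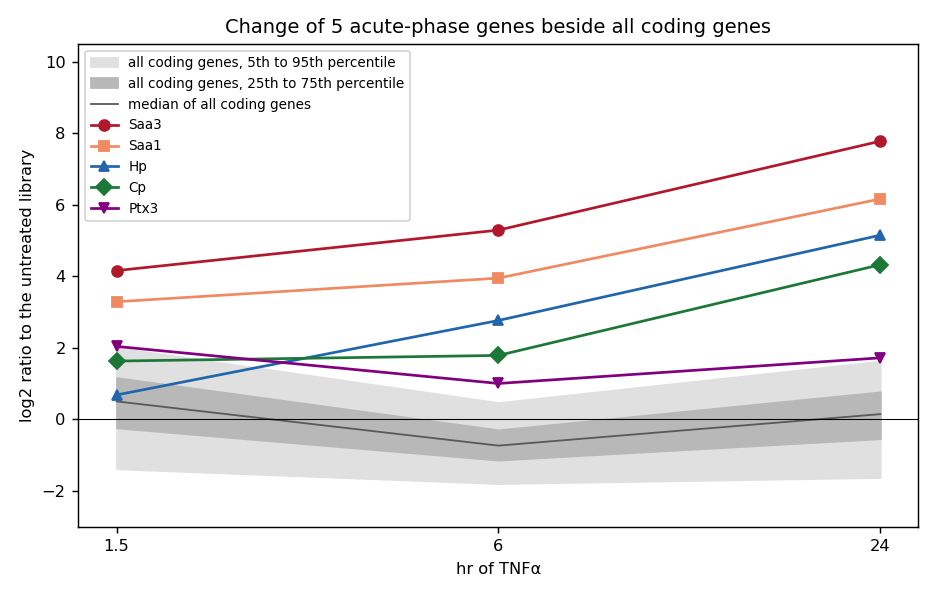
log2 ratio to the untreated library at 1.5, 6 and 24 hr (times at equal steps, not to scale) for the 5 members with a mean of at least 10 units, over the 5th to 95th and 25th to 75th percentiles of 11587 coding genes. At 24 hr the members lie between 1.72 (Ptx3) and 7.78 (Saa3), above the 95th percentile of 1.63, and at 1.5 hr Hp (0.69) and Cp (1.63) lie inside the band that ends at 2.01.

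The late rise of Hp, Saa3, Saa1 and Cp is seen without the untreated library when 24 hr is set against 1.5 hr. In that ratio every member but Saa1, Saa2 and Lcn2 rests on more than 14 reads per column. It shows no early side, since the log2 ratio of Ptx3 was -0.32 as deposited and 0.02 scaled by the median of ratios. Hp was 22.1-fold higher at 24 than at 1.5 hr, Saa3 12.3-fold, Saa1 7.33-fold and Cp 6.47-fold. A ratio of at least 2 in this contrast was found in 65 of 11587 coding genes (0.561%), and 4 of the 5 members tested were among them. Scaled by the median of ratios, it was found in 184 genes (1.59%) and in the same number of members. The members were chosen with these values known, and Saa1 passed the filter on the mean only through its 24 hr value. Nothing is therefore read from their excess here or from the ranks that follow. Ordered by the ratio of 24 to 1.5 hr over 11585 genes, Hp was number 1, Saa3 number 2, Saa1 number 5 and Cp number 6. Between them stood C3, the central complement component and itself an acute-phase protein, at number 4 with a log2 ratio of 3.10. C3 and Chi3l1, a chitinase-like secreted protein at number 11 (log2 2.27), were picked out after their values were seen.

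C3 and Chi3l1 took the same order of times as Saa3. C3 had values of 4.50, 8.09, 34.2 and 69.5, which made it 15.4-fold higher at 24 hr than untreated. Chi3l1 had values of 8.75, 25.6, 34.4 and 123, a log2 ratio of 3.81 at 24 hr. Of the 11 other acute-phase genes with a mean of at least 10 units, 3 had their highest value at 24 hr (C3, Chi3l1 and Serpina3g), as had 7.72% of the 11587 coding genes. After scaling by the median of ratios the numbers were 3 of 11 and 20.8%.

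By the distance of the 3 log2 ratios among the 6022 genes with a mean of at least 100 units, the genes nearest to Saa3 were Ccl5 (distance 1.98), Ccl2 (2.97), Ccl20 (3.38), Cxcl2 (3.58) and Mmp10 (3.86). The first 4 encode chemokines and the fifth a matrix metalloproteinase. None of them lay close, since Ccl5 had log2 ratios of 5.06, 5.57 and 6.04 beside 4.16, 5.30 and 7.78 for Saa3. Ccl2 was already at 6.60 at 1.5 hr and at 6.17 at 24 hr. For Ptx3 the nearest genes were Snx7 (0.285), Mtx2 (0.297) and BC013529 (0.312). Lcn2 has no such measure, since its untreated value was 0.

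**Figure D3:**
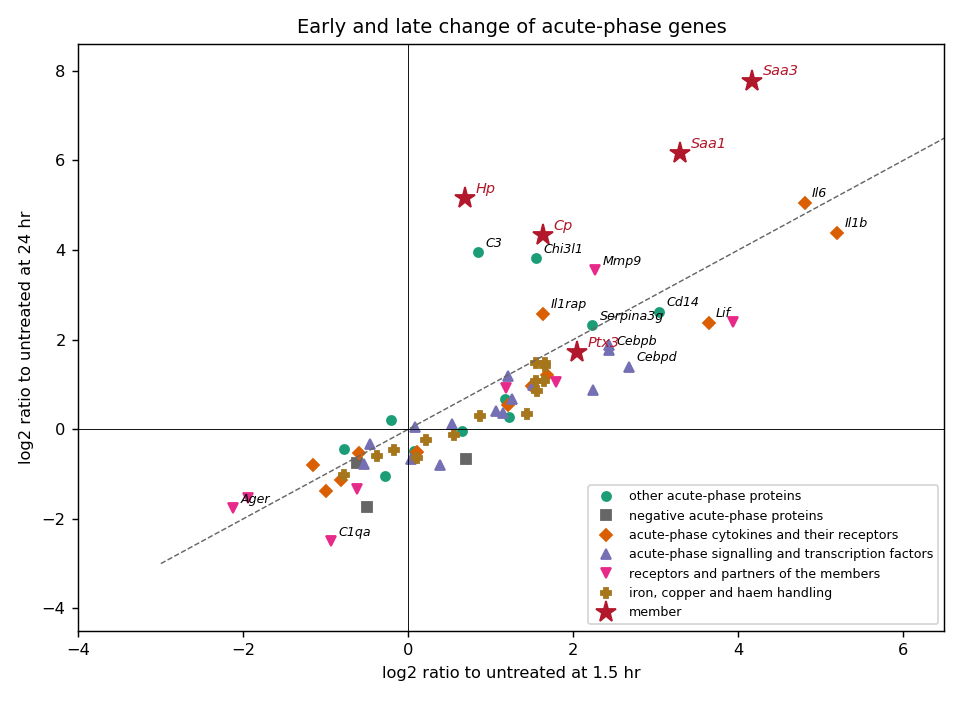
log2 ratio to untreated at 24 hr against that at 1.5 hr, for the members (stars) and the genes of 6 related lists with a mean of at least 10 units; the dashed line marks equal ratios. Hp (0.69 and 5.15), Cp (1.63 and 4.33), Saa1 (3.29 and 6.17) and Saa3 (4.16 and 7.78) lie above the line with C3 and Chi3l1, and Lif, Cebpb and Cebpd lie below it.

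The other genes of the acute-phase system were taken from 6 lists of 100 genes in all, of which 34 had a mean of at least 100 units. At 1.5 hr 17 of the 34 were at least 2-fold higher and 2 lower, at 6 hr 4 were higher and 7 lower, and at 24 hr 9 were higher and 8 lower. Over all 6022 coding genes the shares were 29.8% higher and 7.94% lower at 1.5 hr, 1.84% and 31.5% at 6 hr, and 16.8% and 12.8% at 24 hr. The counts of each list below are to be read against these shares. The libraries as a whole moved too, and after scaling by the median of ratios 11 were higher and 7 lower at 1.5 hr, 6 higher and 3 lower at 6 hr, and 8 higher and 8 lower at 24 hr. The shares above are for the deposited values and none is given after scaling. The scaled counts are therefore not to be read against them.

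Among 33 other acute-phase proteins, 6 passed the filter, and 3, 2 and 2 were higher at 1.5, 6 and 24 hr while 0, 2 and 1 were lower. The liver products Crp, Apcs, Fga and Serpina1a were listed at 0 in all libraries. Cd14, the coreceptor for bacterial lipopolysaccharide, went from 62.6 to 515, 178 and 387 in the order of time (log2 3.04, 1.51 and 2.63). Serpina3g, a protease inhibitor, went from 247 to 1159, 506 and 1230, so that 1.5 and 24 hr stood level (log2 2.23 and 2.32). Serpina3n, another protease inhibitor (275, 290, 87.3 and 197), and the metallothionein Mt1 (11219, 9214, 3080 and 5418) were lower at 6 hr, with log2 ratios of -1.66 and -1.86 in the library whose median gene was at -0.74. None of the 8 negative acute-phase proteins, which the liver makes less of in inflammation, passed the filter.

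Of the 14 cytokines of the response and their receptors 5 passed the filter, with 3, 1 and 2 higher and 0, 0 and 2 lower in the order of time. Lif, a cytokine of the interleukin 6 family, went from 35.3 to 440, 174 and 184 (log2 3.64, 2.31 and 2.38). Il6st, the signalling receptor chain that the family shares, went from 442 to 1413, 329 and 1015 (log2 1.68, -0.42 and 1.20), and the oncostatin M receptor Osmr from 189 to 438, 126 and 274 (log2 1.21, -0.59 and 0.53). The interleukin 11 receptor Il11ra1 was lower, from 1020 to 513, 615 and 392 (log2 -1.38 at 24 hr). Below the filter, and picked out after their values were seen, Il1b went from 2.86 to 105, 39.0 and 59.8 and Il6 from 0.571 to 16.0, 9.82 and 19.0. At 1.5 hr the log2 ratio of Il1b was 5.20. That of Il6 was 4.80, over an untreated value listed at 0 in R1, and 3.77 in R2 alone.

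Of 16 signalling components and transcription factors of the response, 8 passed the filter. At 1.5 hr 5 of them were higher, at 6 hr none were and at 24 hr 1 was, and none were lower. Cebpb, a C/EBP factor, went from 147 to 797, 228 and 499 (log2 2.44, 0.63 and 1.76), and Nfkb1, a subunit of NF-κB, from 115 to 544, 150 and 212 (log2 2.24, 0.38 and 0.88). Zc3h12a, an RNase that cuts inflammatory messages, and the kinase Jak1 had log2 ratios of 1.26 and 1.15 at 1.5 hr. Cebpd, below the filter and picked out after its values were seen, had log2 ratios of 2.68, 0.50 and 1.40. Of the 15 factors with a mean of at least 10 units, 0 had their highest value at 24 hr as deposited and 1 after scaling by the median of ratios, where 7.72% and 20.8% of all coding genes had theirs, so the count lies near that share as deposited.

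Of 13 receptors and partners of the members, 6 passed the filter, with 2, 1 and 1 higher and 2, 1 and 4 lower. Mmp9, a gelatinase whose human form is found in a complex with lipocalin 2, went from 47.0 to 227, 191 and 553 (log2 2.27, 2.02 and 3.55). Slc22a17, a receptor for lipocalin 2, went from 423 to 110, 234 and 146 (log2 -1.94, -0.86 and -1.54). Ager, a receptor of serum amyloid A, went from 161 to 36.9, 191 and 47.4, and C1qa, a complement component that pentraxin 3 binds, from 4325 to 2267, 889 and 766 (log2 -2.50 at 24 hr).

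Of 16 genes of iron, copper and haem handling 9 passed the filter, with 4, 0 and 3 higher and 0, 4 and 1 lower. The 4 lower at 6 hr stand beside 31.5% of all coding genes. The ferritin heavy chain Fth1 went from 3913 to 12389, 3692 and 10356 (log2 1.66, -0.08 and 1.40), haem oxygenase Hmox1 from 327 to 1029, 250 and 905 (log2 1.65, -0.38 and 1.47), and the iron regulatory protein Aco1 from 65.1 to 204, 55.3 and 138 (log2 1.65, -0.23 and 1.08). Hmox2, the constitutive haem oxygenase, had a log2 ratio of -1.86 at 6 hr. Of the 14 listed genes with a mean of at least 10 units, 0 were at least 2-fold higher at 24 than at 1.5 hr. The count was the same after scaling by the median of ratios. The shares of all coding genes were 0.561% as deposited and 1.59% scaled, so the count lies near them and nothing is read from it.

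H3K4me3 in MEFs without TNFα was taken from 11157 deposited peaks, called against the input library. Of 19657 coding genes, 54.1% had a peak within 1 kb of a start, and of the 7 members 1 had, which was Ptx3. Its start lay inside a peak of 4516 bp with 1159 tags and a fold over input of 31.2. With the coding genes cut into 10 classes by untreated value, 90.6% of those in the class of Ptx3 had a peak. Saa2, Saa3 and Hp fell in a class in which 31.4% had one, Saa1 in one of 9.77%, Lcn2 in one of 1.73% and Cp in one of 61.7%. A start without a peak was thus the more common state at the untreated level of Saa1, Saa2, Saa3, Lcn2 and Hp, though not at that of Cp. H3K4me3 after TNFα was not analysed here.

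The nearest peak lay 4449 bp from the start of Saa3, 5200 bp from that of Lcn2, 11619 bp from that of Hp, 31753 bp from that of Saa1, 40606 bp from that of Saa2 and 44200 bp from any coding start of Cp. The peak nearest to Saa3 (797 tags) covered the start of the neighbouring gene Saal1. The 4 Saa genes spanned 42.3 kb inside a stretch of 83.0 kb between that peak and the next, which covers the adjacent, divergent starts of Hps5 and Gtf2h1 (2050 tags). The messages of these flanking genes did not take the course of Saa3. Saal1 had values of 49.0, 60.9, 28.0 and 57.7 in the order of time and Hps5 of 43.2, 45.7, 29.0 and 36.7. Gtf2h1, a subunit of a general transcription factor, went from 86.5 to 261, 64.1 and 172 (log2 1.59, -0.43 and 0.99).

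**Figure D4:**
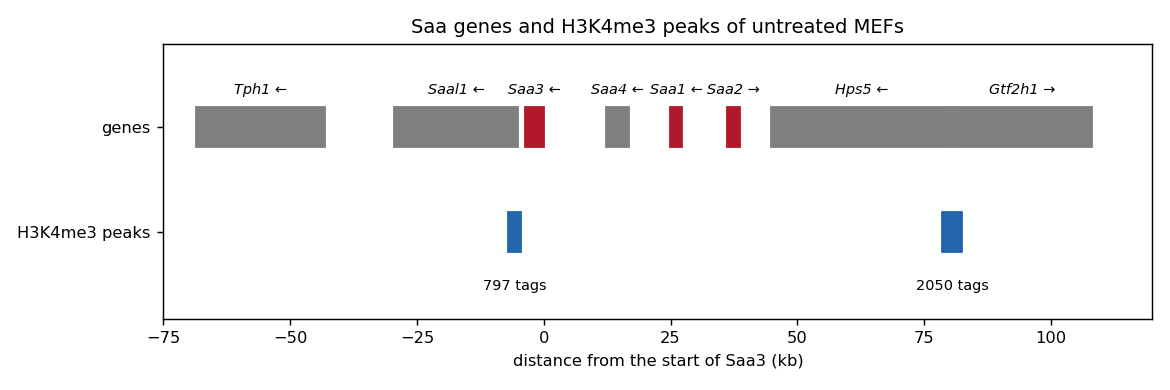
Genes and H3K4me3 peaks of untreated MEFs around the Saa genes, in kb from the start of Saa3 on the mm9 coordinates, with members in red, other genes in grey and arrows for the strand. The 4 Saa genes lie in a stretch of 83.0 kb between a peak of 797 tags and one of 2050 tags.

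The labelled cell type was checked with marker genes. The 11 fibroblast markers, collagens and platelet-derived growth factor receptors among them, were detected in every library with a summed value between 45204 and 99819. The 5 hepatocyte markers summed to at most 1.44, with Ttr and Serpina1a at 0, and the 4 neutrophil markers in the table summed to at most 9.26. All 8 macrophage markers were detected, with none at 0. Their sum was 5727 untreated, 18877 at 1.5 hr, 3874 at 6 hr and 9503 at 24 hr. Lyz2, a lysozyme of myeloid cells, accounted for 2257, 14668, 2692 and 7187 of it. At 24 hr the log2 ratios of Lyz2, Tyrobp, Itgam, Ptprc and Emr1 were 1.67, 0.44, 0.35, 0.31 and 0.06, and those of Cd68, Csf1r and Fcer1g were -0.96, -1.25 and -1.53. In bulk RNA, fewer or more cells of one type and less or more RNA per cell cannot be told apart, and the part of such cells in the members' values was not tested. The 5 adipocyte markers summed to 110, 303, 96.9 and 215 in the order of time, with Adipoq at 0 and nearly all of the sum from Fabp4, a fatty acid binding protein (107, 301, 96.9 and 214; log2 1.49, -0.15 and 1.00). Their part was likewise not tested.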

How the data were processed

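Expression was taken from a deposited table of RPKM values per RefSeq transcript on the mm9 build, which the authors made from paired-end directional reads mapped with TopHat. These values are on a scale of the authors' own, so only ratios and order within the table are used. Columns were assigned to libraries through the identifiers in the study's depth list, and 0 value columns were left unassigned. The 24 hr library's label carries a ChIP protocol in one field, while its title, treatment and library type are those of RNA-seq. R1 and R2 were averaged and not used as replicates, and 1 transcript per gene (highest mean) was kept. Ratios were log2 without a pseudocount and none was given against 0. In counts of calls a gene above 0 against a listed 0 counted as higher, and the reverse as lower. A call needed 2-fold and a mean of 100 units (10 as the lower filter).

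H3K4me3 peaks were deposited by the authors as positions with tag counts, a score made from -log10 p, a fold over input and a false discovery rate in percent; tags, fold and position were used. Each time and each mark has 1 library, so no p-value was computed. The value of 1 read was the step between the low values of each column (7884 genes; 68.4% to 74.4% of low genes lay within 0.1 of a whole number), and the steps of the calculation were tested on simulated data. The members and gene lists were chosen with earlier results of these data known. Named list genes were up to 4 per list with the largest absolute log2 ratio among those called, with the 5 genes nearest to Saa3 and 3 to Ptx3; C3, Chi3l1, Il1b, Il6, Cebpd, the liver products at 0 and the single marker genes were picked out after their values were seen. Promoter sequences came from RefSeq (GRCm38.p6). Alternatives (with scaling of the 24 to 1.5 hr contrast, the lower filter for lists and the counting intervals added after seeing the data) were scaling, filter, fold, pseudocount, single columns, all transcripts of a gene and peak limits. Calculations used Python 3.11.15, numpy 2.4.6, pandas 2.3.3, scipy 1.17.1 and Biopython 1.88.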

Additional observations from a re-analysis of the deposited data

How the results depend on the processing

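No paired analysis was possible because each time has 1 library and no replicate numbers are shared. Of 139 alternative values of the members' ratios 135 kept their sign. The 4 that did not were the 24 to 1.5 hr ratios of Lcn2 (0.14 scaled to the sum, 0.17 by the median of ratios and 0.02 in R1, beside -0.17) and Ptx3 (0.02 by the median of ratios, beside -0.32). For Saa3 the log2 ratio at 1.5 hr was 3.92 scaled to the sum, 3.72 by the median of ratios and 2.43 with a pseudocount of 10. In the same order it was 6.16, 6.04 and 3.45 at 6 hr, 7.85, 7.68 and 5.86 at 24 hr, and 3.93, 3.96 and 3.43 for 24 over 1.5 hr. The low pseudocount values follow from its size beside the untreated value. Members called higher at 1.5 hr numbered 5 with no filter and 4 with a mean of at least 10. At 6 hr they numbered 5 with either of these and 1 with a 3-fold limit or with both columns required, and at 24 hr 6 and 5. The counts with no filter at 1.5 and 24 hr include Lcn2, at about 2 reads against a listed 0, for which no ratio is given. List genes called higher at 1.5 hr numbered 11 by the median of ratios, 10 at 3-fold, 38 with no filter and 32 with a mean of at least 10. Those lower at 1.5 hr numbered 6 scaled to the sum, 7 by the median of ratios and 15 with no filter. At 6 hr, those higher numbered 8 scaled to the sum, 2 at 3-fold, 13 with no filter and 9 with a mean of at least 10. By the median of ratios 6 were higher at 6 hr. Those lower at 6 hr numbered 1 scaled to the sum, 3 by the median of ratios, 4 at 3-fold, 30 with no filter and 16 with a mean of at least 10. At 24 hr, those higher numbered 5 at 3-fold, 30 with no filter and 21 with a mean of at least 10, and those lower 2 at 3-fold and 21 with no filter. No share of all coding genes is set beside these list counts, so they show only how far the counts depend on the setting. Members with a peak at the start numbered 2 with a window of 5 kb and 0 with a fold of at least 40. Of the 5 genes nearest to Saa3, 2 remained with the pseudocount. The untreated reads limit Saa3 and Saa1, and no comparison has a replicate check.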
